A study of Mus musculus with 2 samples.

Results

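The genes described here make, check and clear proteins in the endoplasmic reticulum, or respond when that work backs up. The rule that chose them uses gene names and no measured values, although it was set with earlier results of these data known. It takes 51 genes covering stress sensors and their transcription factors, chaperones, disulfide isomerases, translocation and degradation. A probe set annotated to that gene alone was found for 50 of them, of 18193 genes named in the series, and these 50 had 113 of the 34945 single-gene probe sets. Eif2s1, which encodes the subunit of translation initiation factor eIF2 that PERK phosphorylates, had none and was not analysed here.

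The series compared mouse islets with and without the zinc finger repressor ZBTB20 in their beta cells on 2 Affymetrix arrays. The first holds wildtype islets of littermate control mice and the second holds islets of mice with a b cell-specific ZBTB20 knockout, all from a mixed background and aged 2 to 3 months. The islets were released with collagenase, picked by hand, kept in culture overnight and frozen, and cRNA was made from 6 µg of RNA. The promoter driving the deletion, the exons removed, the sex of the mice and the number of animals behind each array are unknown, as the sources used here do not give them. Beta cells share the islet with alpha, delta and PP cells, which keep the gene. The 9 probe sets of Zbtb20 were split, 5 with a lower and 4 with a higher signal in the second array (median log2 ratio -0.062, SD 0.45 among the probe sets), so the second array is called knockout-labelled.

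An islet beta cell spends much of its capacity folding proinsulin, a protein held together by disulfide bonds, and is known for its dense endoplasmic reticulum. Unfolded protein is sensed by the membrane proteins IRE1, PERK and ATF6. IRE1 splices the Xbp1 message, PERK slows translation while favouring ATF4, and ATF6 is cut in the Golgi to release a transcription factor. Together these raise chaperones, disulfide isomerases and the machinery that extracts misfolded protein for the proteasome, and prolonged PERK signalling raises Ddit3, which encodes CHOP. Splicing, phosphorylation and cleavage are not read by these probe sets, which report message abundance only.

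Every value below is a MAS5 signal, a linear fluorescence intensity that summarises the probes of 1 probe set, and every ratio is knockout-labelled over control on the log2 scale. A gene is represented by its brightest probe set. Signals below the array median (21.6 in control and 21.7 in knockout-labelled islets) were raised to it before the ratio was taken. With 1 array per group there is no replicate error, no test and no p-value, and each ratio compares 2 RNA preparations. As islets were measured whole, fewer cells of a type and less RNA per cell cannot be told apart.

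The 50 genes had nearly the same signals on both arrays. None was 2-fold higher or lower, where 1.82% and 1.44% of the 11802 named genes with a ratio were. Among the 6191 named genes at or above the signal of the dimmest member these shares were 1.23% and 0.856%. With shares this low, 0 of 50 lies near the background and does not set the members apart. Their median log2 ratio was 0.0076, beside 0 for all named genes, with 27 above 0 and 23 below. All 50 were above the floor on both arrays, with signals from 129 to 6849 in control and from 94.3 to 7071 in knockout-labelled islets. The 50 signals added up to 94816 in control and 93622 in knockout-labelled islets.

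A lower limit, a log2 ratio of 0.32 in either direction, was passed by 3 of the 50. Erp29 and Edem2 were higher and Mbtps2 was lower, whereas 17.1% of all named genes were higher and 16.1% lower at that limit. Ratios narrow as signals rise, so the limit was also read among genes of similar brightness, a grouping chosen after the data were seen. Of the 25 brighter members none passed the lower limit, beside 3.46% higher and 8.85% lower of the 780 named genes at or above the members' median signal. Of the 25 dimmer members 2 were higher and 1 was lower (8% and 4%), beside 12.7% and 11.1% of the 5411 named genes between the dimmest member and that median. Shares over such small groups move by several points with a single gene. In the plot of ratio against signal the members lie along the zero line within the narrow part of the cloud.

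**Figure D1:**
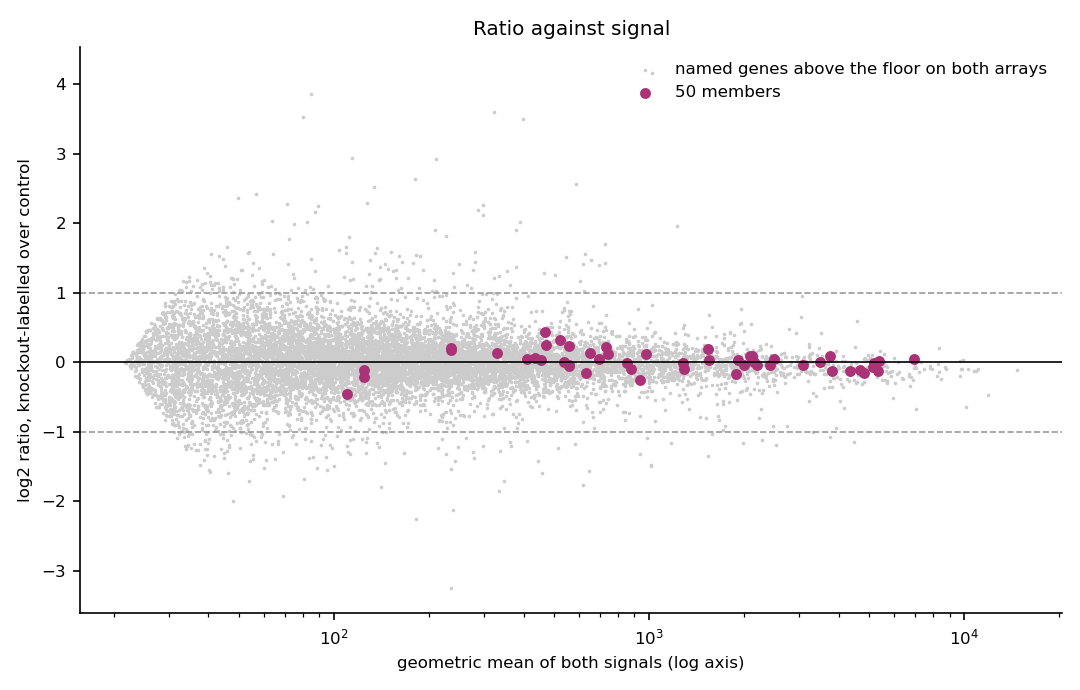
Log2 ratio of knockout-labelled over control signal (vertical axis) against the geometric mean of both signals (horizontal log axis) for each named gene above the floor on both arrays (grey) and the 50 members (purple), with dashed lines at 2-fold. The members run from -0.46 to 0.44, and none reaches a dashed line.

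Among the stress sensors, signals were close to equal and went both ways. Ern1, which encodes the kinase and RNase IRE1, had a signal of 1444 in control and 1649 in knockout-labelled islets and so was 1.14-fold higher. Eif2ak3, the gene of the kinase PERK, had 562 and 549.9. Atf6, the gene of the cleaved sensor, had 314.5 and 343.5, and its relative Atf6b had 134 and 116. Thus Ern1 and Atf6 were slightly higher, Atf6b was slightly lower and Eif2ak3 was level, and none passed the lower limit in its brightest probe set. The probe sets above the floor on both arrays ran from -0.094 to 0.59 for Ern1 and from -0.050 to 0.35 for Atf6.

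The proteases that cut ATF6 in the Golgi went in opposite directions. Mbtps1, the gene of the site-1 protease that makes the first cut, had 221 in control and 250.2 in knockout-labelled islets. Mbtps2, the gene of the site-2 protease that makes the second, had 129 and 94.3, 1.37-fold lower and the largest ratio of all members (log2 ratio -0.46). It was also the dimmest member and had a single 1-gene probe set, and a dim probe set annotated to both Yy2 and Mbtps2 had 25.8 and 22.8. All 3 probe sets of Mbtps1 were above 0 (mean log2 ratio 0.36 ± 0.16, SD among probe sets). The 6 measured sensor and protease genes had a median log2 ratio of 0.048.

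The transcription factors below the sensors were strongly labelled on both arrays and differed by less than 1.1-fold. Xbp1, the target of IRE1 splicing, had signals of 5276 in control and 5025 in knockout-labelled islets. Atf4, whose translation rises when PERK is active, had 3643 and 3863, and Atf5, which is regulated in a like manner, had 711 and 771. Ddit3, whose protein CHOP promotes apoptosis in lasting stress, had 1331 and 1247. Xbp1 and Ddit3 were marginally lower and Atf4 and Atf5 marginally higher, with a class median of 0.0071. The dimmer Ddit3 probe set gave a larger difference in the same direction (138 and 104, log2 ratio -0.41). Of the 4 Xbp1 probe sets the brighter pair gave -0.070 and -0.064 and the others 0.092 and 0.45, the last from the dimmest.

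Genes induced by ATF4 or CHOP were also level. Asns, the asparagine synthetase gene, had 3488 in control and 3515 in knockout-labelled islets. Chac1, which encodes an enzyme that breaks down glutathione, had 1533 and 1573, and Trib3, the gene of a pseudokinase that restrains ATF4, had 403 and 416. Of these Trib3 was farthest from equality, at 1.03-fold higher. Ppp1r15a, the inducible phosphatase subunit GADD34 that restores translation, had 855 and 851. Its constitutive counterpart Ppp1r15b had 435 and 515, 1.18-fold higher, but its other measured probe set went the other way (58.6 and 47.1, log2 ratio -0.32). The 5 genes had a median log2 ratio of 0.037.

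**Figure D2:**
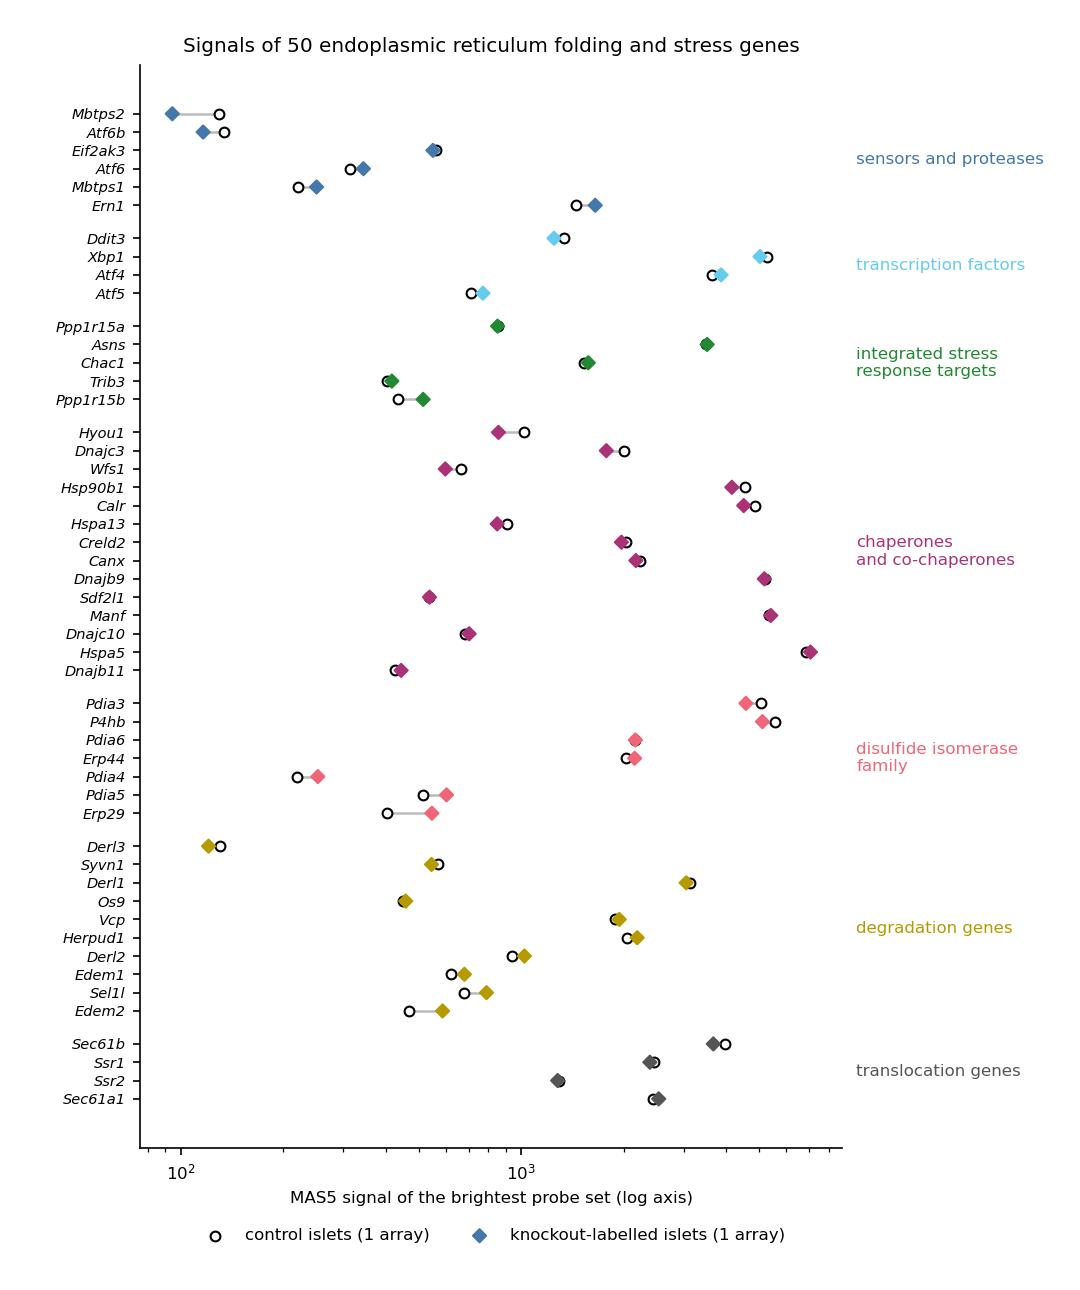
MAS5 signal of the brightest probe set (horizontal log axis) of each of the 50 members in control islets (open circles) and knockout-labelled islets (coloured diamonds), 1 array each and grouped by role. The symbols nearly coincide for most genes, and the widest gaps are those of Mbtps2, Erp29 and Edem2.

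The chaperone class held 14 genes, none past the lower limit either way in its brightest probe set, with ratios from -0.25 to 0.056 and a median of -0.041. With quantile and loess normalization that median was 0.025 and 0.014, so the class has no settled direction. Hspa5, the gene of the master chaperone BiP that also holds the sensors inactive, had 6849 in control and 7071 in knockout-labelled islets. Hsp90b1, the gene of the Hsp90 of the endoplasmic reticulum (GRP94), had 4532 and 4154. The lectin chaperone genes Calr and Canx, which fold glycoproteins, had 4849 and 4501, and 2229 and 2170.

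The largest ratio among chaperones belonged to Hyou1, a large Hsp70 relative that acts as an exchange factor for BiP and is also induced by low oxygen. It had 1018 in control and 857 in knockout-labelled islets and so was 1.19-fold lower. Its 3 probe sets went the same way (mean log2 ratio -0.21 ± 0.035, SD among probe sets), as did those of Calr (-0.094 ± 0.025), although Calr was at 0.022 with quantile normalization. Probe sets of 1 gene share RNA and array, and their spread leaves out all variation between animals.

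The J-domain partners of BiP were also inside the lower limit in their brightest probe sets. Dnajb9 (ERdj4), a sensitive target of XBP1, had 5212 in control and 5174 in knockout-labelled islets. Dnajb11 (ERdj3) had 427 and 443, and Dnajc10 (ERdj5), which is also a disulfide reductase, had 681 and 703. All 3 probe sets of Dnajc10 were above 0, and the dimmest passed the lower limit (165.5 and 207.7, log2 ratio 0.33). Dnajc3, whose product p58IPK is also known as an inhibitor of eIF2 kinases, had 2003 and 1777. Dnajc3 had the larger ratio of these (log2 ratio -0.17), but its 5 probe sets ran from -0.23 to 0.21, with 3 of them above 0.

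The other stress-induced luminal genes were level too. Sdf2l1, the gene of a partner of ERdj3, had 536 in control and 537 in knockout-labelled islets, and Hspa13, another Hsp70 family gene, had 907 and 849. Manf, which encodes a secreted protein needed for beta cell survival in mice, had 5348 and 5406. Creld2, a secreted stress-induced protein gene, had 2028 and 1968. Wfs1, mutated in the diabetes of Wolfram syndrome and coding for a membrane protein that restrains ATF6, had 665 and 598 from its single probe set (log2 ratio -0.15). Of these 5 genes Wfs1 was farthest from equality, at 1.11-fold lower.

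Many of these genes are known to be induced through a shared promoter element, the ER stress response element (ERSE), in which CCAAT and CCACG are separated by 9 bases and bind NF-Y and ATF6. The choice of genes used no promoter sequence, but a list of known stress genes can be expected to hold the element often. Its share among the members is therefore a description and not independent of the choice. Promoter sequences from RefSeq (GRCm38.p6, 250 bases before to 50 after each annotated start) were held for 41 of the 50 genes. Searched as exact letters on both strands, the ERSE lay in promoters of 9 of the 41 (22%) and of 37 of all 27025 genes with a promoter (0.137%). A match describes letters and does not show that a factor binds there. The Hspa5 promoter is given here from 250 bases upstream to its start (GRCm38.p6, chr2:34771840-34772089, plus strand) with the ERSE in capitals.
Hspa5: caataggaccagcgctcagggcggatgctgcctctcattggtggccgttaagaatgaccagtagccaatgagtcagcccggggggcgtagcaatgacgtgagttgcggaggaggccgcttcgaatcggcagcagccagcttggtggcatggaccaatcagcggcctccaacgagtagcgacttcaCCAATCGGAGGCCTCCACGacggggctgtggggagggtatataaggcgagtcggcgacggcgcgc

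The other 8 genes with an ERSE are shown so that the element can be compared, each read along the strand that carries it, with 12 bases on either side and the element in capitals. Hsp90b1 had 2 matches. Positions are GRCm38.p6: Hsp90b1 at chr10:86705626-86705668 (minus) and chr10:86705521-86705563 (plus), Calr at chr8:84847063-84847105 (plus), Canx at chr11:50325788-50325830 (minus), Creld2 at chr15:88819508-88819550 (minus), Dnajc3 at chr14:118937815-118937857 (plus), Pdia6 at chr12:17266479-17266521 (plus), Syvn1 at chr19:6046520-6046562 (plus) and Derl3 at chr10:75893230-75893272 (minus).
Hsp90b1, farther match: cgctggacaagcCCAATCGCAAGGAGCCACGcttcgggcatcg
Hsp90b1, nearer match: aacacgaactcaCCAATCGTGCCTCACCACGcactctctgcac
Calr: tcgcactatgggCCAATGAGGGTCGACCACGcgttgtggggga
Canx: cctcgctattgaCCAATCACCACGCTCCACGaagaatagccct
Creld2: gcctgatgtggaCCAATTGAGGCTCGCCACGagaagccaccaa
Dnajc3: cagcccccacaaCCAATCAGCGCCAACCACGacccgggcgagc
Pdia6: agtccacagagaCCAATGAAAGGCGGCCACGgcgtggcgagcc
Syvn1: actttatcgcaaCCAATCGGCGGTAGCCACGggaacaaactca
Derl3: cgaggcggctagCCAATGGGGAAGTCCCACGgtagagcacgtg

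The 10 matches lay between 212 and 26 bases upstream of the start, 6 on the strand of the gene and 4 on the other. The 9 genes that carry the element cover chaperones (Hspa5, Hsp90b1, Calr, Canx, Creld2, Dnajc3), a disulfide isomerase (Pdia6) and degradation genes (Syvn1, Derl3). Their log2 ratios ran from -0.17 to 0.046 with a median of -0.058, and those of the 32 genes with a promoter but no match from -0.46 to 0.33 with a median of 0.038. With quantile normalization the median of the 9 was 0.022, so no direction is read from it. None of the 9 passed the lower limit in its brightest probe set.

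Shorter elements were searched in the same promoters. ERSE-II, in which ATTGG and CCACG flank a single base, lay in Herpud1 and Dnajb11 and in 0.0444% of all genes. The core TGATGNAA of the C/EBP-ATF composite element, through which ATF4 acts, lay in Asns, Chac1, Trib3 and Herpud1, 4 of 41 (9.76%), beside 4.51% of all genes. The core TGACGTGG of the element bound by XBP1 and ATF6 lay in Vcp alone among the members and in 0.714% of all genes. The matches upstream of the start in Herpud1, Asns and Chac1 are shown as above, with the element in capitals. They lie at chr8:94386365-94386399 (plus) and chr8:94386305-94386336 (minus) for Herpud1, chr6:7693213-7693244 (minus) for Asns and chr2:119351037-119351068 (minus) for Chac1.
Herpud1, ERSE-II: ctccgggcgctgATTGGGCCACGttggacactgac
Herpud1, C/EBP-ATF core: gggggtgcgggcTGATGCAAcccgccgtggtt
Asns, C/EBP-ATF core: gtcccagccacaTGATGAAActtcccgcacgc
Chac1, C/EBP-ATF core: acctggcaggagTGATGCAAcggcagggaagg

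The genes with the C/EBP-ATF core were level between the arrays, with log2 ratios of 0.011 (Asns), 0.037 (Chac1), 0.046 (Trib3) and 0.095 (Herpud1). The map of matches shows how far each lies from its start.

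**Figure D3:**
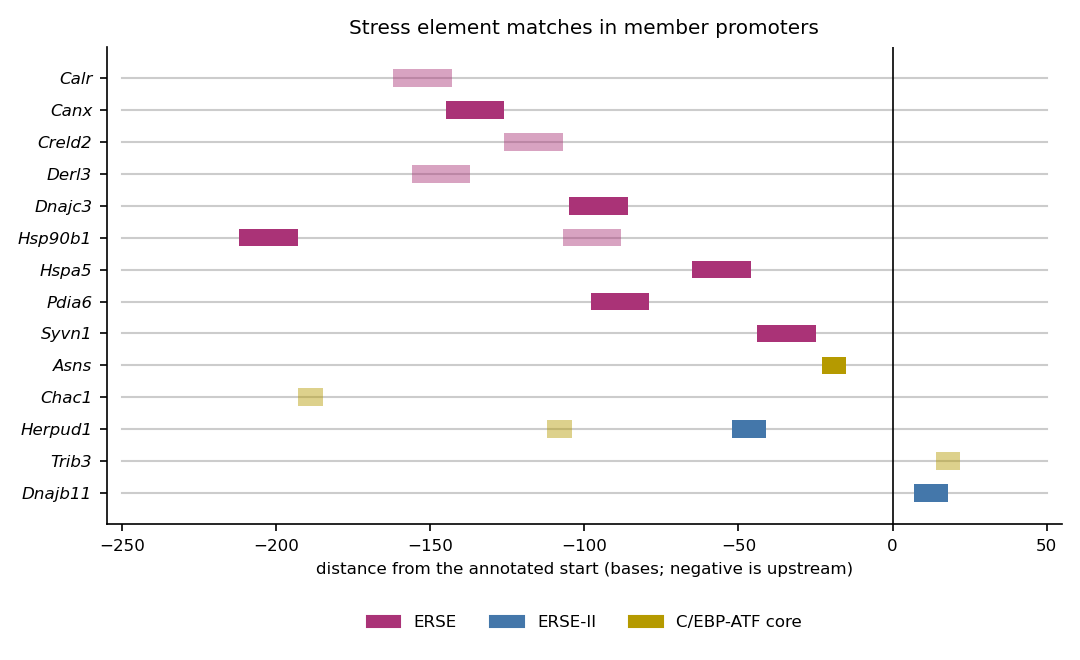
Matches to the ERSE (purple), ERSE-II (blue) and C/EBP-ATF core (yellow) in the promoters of 14 members, plotted by distance in bases from the annotated start, with full colour for matches on the strand of the gene and pale colour for the other strand. The 10 ERSE matches all lie upstream, from 212 to 26 bases before the start, and the C/EBP-ATF core of Trib3 and the ERSE-II of Dnajb11 lie after it.

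Disulfide isomerases make and rearrange the bonds that hold proinsulin in shape. Their genes held the widest spread of any class but the sensors, from -0.15 to 0.44, with a median of 0.086. P4hb, the gene of the founding enzyme PDI, had 5564 in control and 5109.9 in knockout-labelled islets, and Pdia3, whose product ERp57 serves glycoproteins with calreticulin and calnexin, had 5074 and 4569. Pdia6 had 2160 and 2163. The brightest of the family were thus level or up to 1.11-fold lower, although Pdia3 was at 0.0091 as a mean over its probe sets.

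The other members of the family were higher in their brightest probe sets. Pdia4, which encodes ERp72, had 219 in control and 252 in knockout-labelled islets, and Pdia5 had 514 and 603, a 1.17-fold higher value. Erp29, which encodes a PDI-related protein without an active-site cysteine pair that takes part in secretory protein folding, had 403 and 546, which is 1.35-fold higher (log2 ratio 0.44). This was the highest log2 ratio among the 50 and rests on a single probe set. Erp44, the gene of a thiol retention factor of the early secretory pathway, had 2028 and 2152, while its dimmer probe set gave 119.5 and 101.5. Pdia3 had a dim second probe set with the opposite sign (53.8 and 60.5). Erp44 had signals close to those of Pdia6, so no split of the family by brightness is read. The differences between its enzymes were not tested.

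Degradation genes lift misfolded protein back to the cytosol for the proteasome. Of the 10 genes 7 were above 0 and 3 below, with a median of 0.067 and Edem2 alone past the lower limit. Edem2, which encodes a mannosidase that marks glycoproteins for disposal, had 467.5 in control and 587 in knockout-labelled islets and so was 1.26-fold higher. This lies close to the lower limit of 0.322, with a log2 ratio of 0.328 as deposited, 0.321 with median scaling and 0.318 with a pseudocount of 16, and the last 2 do not pass it. Its relative Edem1 had 621 and 680.3 in its brightest probe set and 282 and 424 in its other one (log2 ratio 0.59). Os9, the gene of a lectin that hands marked proteins on, had 448 and 457.

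The membrane complex that passes proteins outward had genes on both sides of 0, inside the lower limit in their brightest probe sets. Sel1l, the gene of its scaffold, had 679 in control and 790 in knockout-labelled islets, and Syvn1, the gene of the ubiquitin ligase HRD1, had 567 and 545. The 5 measured probe sets of Sel1l did not move together, with log2 ratios from -0.052 to 0.70. Herpud1, a stress-induced partner of the ligase, had 2049.8 and 2189.8. Sel1l and Herpud1 were thus slightly higher and Syvn1 slightly lower, and the other Syvn1 probe set had the opposite sign (0.33).

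The derlin genes and the ATPase gene Vcp complete the class. Derl1 had 3137 in control and 3050 in knockout-labelled islets, Derl2 had 936 and 1021, and Derl3, which is prominent in secretory tissues, had 130 and 120.5. Vcp, the gene of the ATPase p97 that pulls substrates from the membrane, had 1889 and 1939. All 4 genes were within 1.1-fold in their brightest probe sets. The dimmer Derl2 probe set gave a log2 ratio of 0.25, and the probe sets of Derl1 ran from -0.12 to 0.19. Derl3 was among the dimmest members and had 1 probe set.

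Translocation genes bring new secretory chains into the endoplasmic reticulum, and all 4 were within 1.09-fold in their brightest probe sets. Sec61a1, the gene of the channel pore, had 2443 in control and 2532 in knockout-labelled islets, and its small partner Sec61b had 3978 and 3664. The translocon-associated protein genes Ssr1 and Ssr2 had 2454 and 2386, and 1290 and 1278. The 4 probe sets of Ssr1 ran from -0.041 to 0.54, with 2 above 0 and 2 below, and the highest was a dim one (102.9 and 150). Sec61a1 was the member with the most probe sets, and its 6 gave log2 ratios from -0.13 to 0.077 with 5 above 0 (mean 0.017 ± 0.076, SD among probe sets). The class median was -0.027, and 0.024 with quantile or with loess normalization.

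The 113 probe sets of the members give a direct view of measurement spread. Of these, 107 were above the floor on both arrays, 60 with a ratio above 0 and 47 below (median 0.025), and none reached 2-fold. Past the lower limit 12 were higher and 2 lower (11.2% and 1.87%), beside 17.3% and 15.9% of all 18275 single-gene probe sets above the floor on both arrays. Among the 31 genes with 2 or more such probe sets, all were above 0 for 8 genes, all below 0 for 5 and mixed for 18. The median SD among probe sets of a member was 0.16 on the log2 scale, beside 0.21 for the 4719 named genes with 2 or more. Only 3 of the 15 members with 3 or more measured probe sets had a mean ratio beyond the SD of their probe sets, namely Mbtps1, Hyou1 and Calr. In the plot of ratios by probe set the points of these 18 genes lie on both sides of the zero line.

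**Figure D4:**
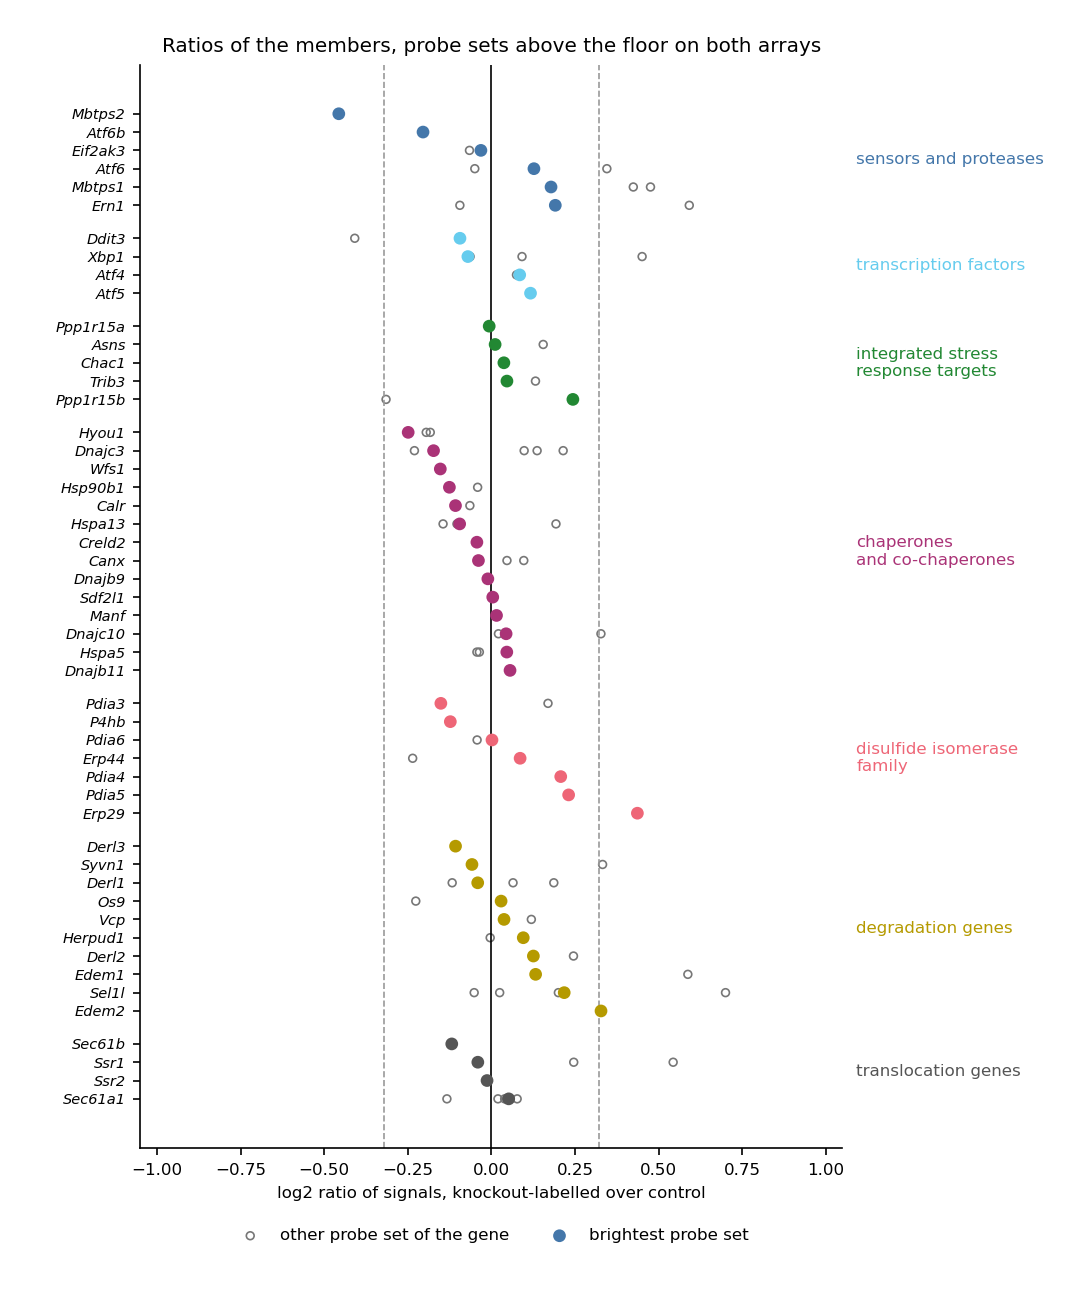
Log2 ratio of knockout-labelled over control signal for the brightest probe set of each member (coloured by role) and for its other probe sets above the floor on both arrays (open grey circles), with dashed lines at the lower limit, a log2 ratio of 0.32 either way. Only Erp29, Edem2 and Mbtps2 have a filled point beyond a dashed line, and the dimmer probe sets of Sel1l, Ern1 and Edem1 lie farther out.

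Other genes of the same pathways were read from 7 lists of 160 genes in all, of which 153 were measured and 145 had a ratio. Their median was 0.0018, with 1 gene 2-fold higher and 3 at least 2-fold lower (background 1.82% and 1.44%) and 17 higher and 14 lower past the lower limit. The latter are 11.7% and 9.66% of the 145, beside a background of 17.1% and 16.1%. Among the 6191 named genes at or above the signal of the dimmest member the shares were 11.5% and 10.8%. The lists are thus near the share of genes of such brightness, although some of their genes are dimmer. Inside the lower limit lay 66.7% of all named genes and 87.7% of the 780 at or above the members' median signal. Of the 7 lists, translocation genes outside the members had the largest share inside it, 17 of 18 (94.4%). The exception was Sec61a2, the second gene for the channel pore (162 in control and 205 in knockout-labelled islets, log2 ratio 0.34), followed by Spcs3, a signal peptidase subunit gene (0.20). The other Sec61a2 probe set went the other way (108.8 and 101.7, log2 ratio -0.097). The lowest were Srp72, of the signal recognition particle (-0.15), and Sec62, a translocation partner of the channel (-0.11). The other Srp72 probe set gave 0.14, and the probe sets of Sec62 ran from -0.26 to 0.78. Of the 17 N-glycosylation and glycoprotein folding genes 15 (88.2%) were inside the lower limit. The exceptions were Mogs, the first glucosidase gene of glycan trimming (611 in control and 832 in knockout-labelled islets), and Uggt2, a glycoprotein folding sensor gene (52.9 and 69.6). The lowest of that list were Prkcsh, of the second glucosidase (962 and 806), and Tusc3, of the oligosaccharyltransferase (601 and 552).

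Oxidative folding genes outside the members differed more in single genes, though their median was -0.011. Pdia2, the gene of the PDI of the exocrine pancreas, had 173 in control and 70.8 in knockout-labelled islets and so was 2.44-fold lower. Ero1a, the gene of the oxidase that recharges PDI and a gene induced by low oxygen, had 2194 and 1479, and its 3 probe sets gave log2 ratios of -0.57, -0.67 and -0.62. Qsox1, a sulfhydryl oxidase gene, was higher (194 and 327), and its other probe set above the floor gave 0.32. Tmx2, a membrane-bound thioredoxin-related gene, came next on the higher side (409 and 500.5). In this list 4 of 16 genes were lower and 1 was higher past the lower limit. These are 25% and 6.25%, beside 16.1% and 17.1% of all named genes, and single genes move such shares by several points. The others on the lower side, named after their values were seen, were Creld1 (206 and 144) and Ero1b (3862.5 and 2835), the oxidase gene that is prominent in beta cells. The dimmer Ero1b probe sets gave log2 ratios of -0.17 and -0.24, inside the lower limit.

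Markers of acinar cells, in which Pdia2 is known to be expressed, were also lower. The 20 measured acinar cell markers summed to 52330.5 in control and 27497 in knockout-labelled islets, with 16 of the 17 genes that had a ratio below 0 and a median of -1.0. The acinar regulator genes Ptf1a and Rbpjl were below the floor on both arrays, and Bhlha15, the acinar secretory regulator gene MIST1, had 713.5 and 741. The brightest markers, Cela3b, Prss2 and Ctrb1, had 8913 and 5590, 6649 and 3013, and 5450 and 2834. No marker was at 0. Acinar cells are secretory cells rich in endoplasmic reticulum. The summed signal of the members was 1.01-fold lower and that of the acinar markers 1.90-fold lower. The part of acinar RNA in the signal of Pdia2 or of any member was not tested.

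Low oxygen induces a set of genes of which 18 were measured. Their median log2 ratio was -0.71, with 17 lying below 0. Lower by 2-fold or more were 4 of the 18 (22.2%), beside 1.44% of all named genes. This list, like the others, was chosen with earlier results of these data known. Egln3, an oxygen-sensing prolyl hydroxylase gene, had 70.2 in control and 23.4 in knockout-labelled islets, and P4ha2, a collagen prolyl hydroxylase gene, had 524 and 217. Bhlhe40 and Ankrd37 were the nearest to equality, at 0.10 and -0.062. Whether these differences bear on Ero1a or Hyou1 was not tested.

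Cytosolic and mitochondrial chaperones were the other comparison. Their median was -0.063 over 18 genes, but 4 of them (22.2%) were at least 2-fold lower, beside 1.44% of all named genes. These were Hspb8 (262 in control and 75.7 in knockout-labelled islets), Hspa1a (786 and 336), Cryab (95.5 and 42.4) and Hspa1b (1763 and 788.5). Hspa1a and Hspa1b are near-identical copies and their probe sets may share transcripts. One Hspb8 probe set went the other way (0.18). The highest of the list were the co-chaperone genes Bag3 (0.11) and Stip1 (0.087). No member of the endoplasmic reticulum class reached such a ratio in either direction, but that lies near the background and does not set the members apart. The difference between the classes was not tested, since 1 array per group allows no test.

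Other ATF4 targets had a median of 0.070 over 31 genes, with 20 above 0 and 11 below. Cth, the cystathionine gamma-lyase gene of cysteine synthesis, was 3.15-fold higher, from 61.4 in control to 194 in knockout-labelled islets, with a single probe set, and Jdp2, a repressor gene, had 29.1 and 43.6. In the other direction Nupr1, a stress-induced chromatin protein gene, had 3839 and 1678, and Ddit4, a growth inhibitor gene also induced by low oxygen, had 479 and 285.5. Both probe sets of Nupr1 were lower (-1.19 and -1.45). The 3 largest ratios of the list thus include a gene on each side, while the ATF4 targets among the members were level.

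Other stress signalling genes had a median of 0.029 over 25 genes. Eif2ak4, the gene of the amino acid sensor kinase GCN2, had 54.7 in control and 85 in knockout-labelled islets, while its other, dimmer probe set passed the floor in control only (21.9 and 17.8). Creb3l1, a relative of Atf6, had 212 and 312. On the lower side stood Map3k5, the gene of the apoptosis kinase ASK1 (163.5 and 117), and Eif2ak1, the heme-regulated eIF2 kinase gene (170.1 and 130). Of this list 16 genes were inside the lower limit, 6 were higher and 3 lower. Those past it are 24% and 12%, beside 17.1% and 16.1% of all named genes. Pmaip1, an apoptosis gene, alone was at least 2-fold lower. It passed the floor in control only (53.2 and 19.8, at least 2.45-fold lower). The highest of the list passed it in knockout-labelled islets only, namely Bbc3, another apoptosis gene (18.3 and 38.2), and Creb3l3 (20.3 and 38.2), each at least 1.77-fold higher. These 3 genes with bounds were named after their values were seen.

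The remaining chaperone and degradation lists held no 2-fold difference. Sil1, the gene of another exchange factor for BiP, was the highest of 12 chaperone genes (223 in control and 344 in knockout-labelled islets), followed by the prolyl isomerase gene Fkbp11 (397 and 479), and the J-domain genes Dnajb12 (97.5 and 68.7) and Dnajb14 (253.5 and 192) were the lowest. In the degradation list, with a median of 0.0021 over 26 genes, Aup1 (98.5 and 164) and the signal peptide peptidase gene H13 (1324 and 1890.2) were the highest, and Erlin2 (221 and 145) and Herpud2 (483 and 359.9) the lowest. The dimmer H13 probe sets above the floor gave smaller log2 ratios of 0.15, 0.020 and 0.084. Those of Herpud2 went both ways (0.16 and -0.28). Ratios lay on both sides of 0 in both lists, with 7 chaperone genes below 0 and 5 above and 13 degradation genes on each side.

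**Figure D5:**
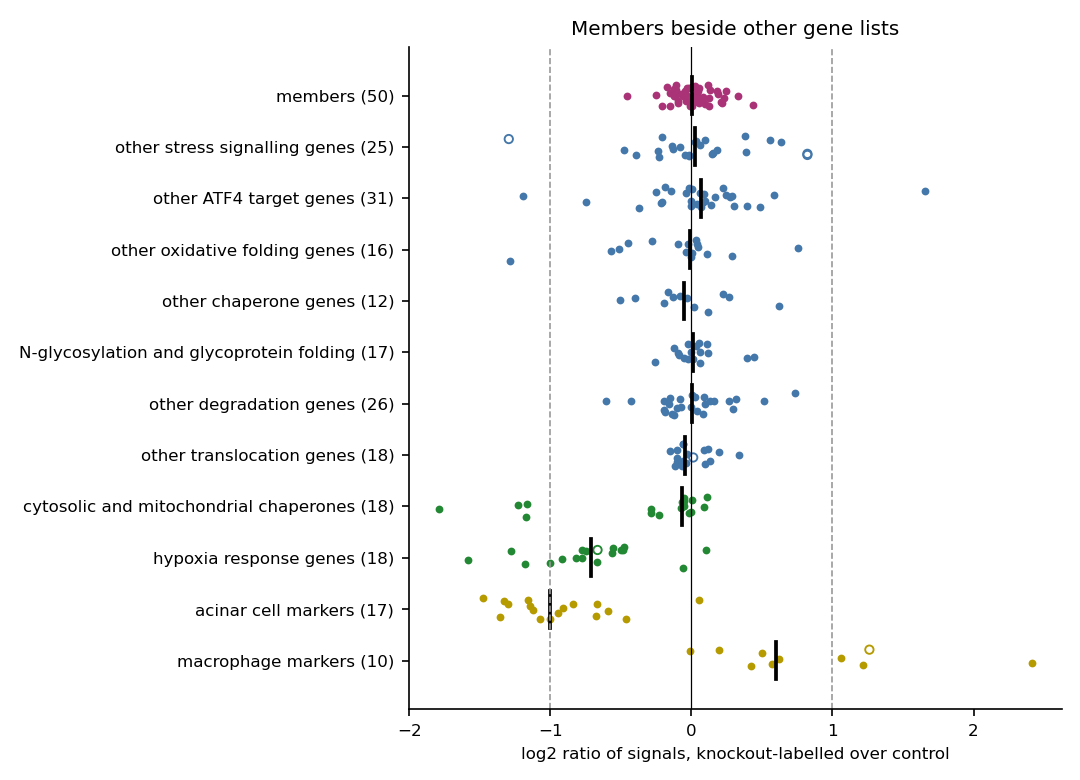
Log2 ratio of knockout-labelled over control signal for the members (purple), the other pathway lists (blue), cytosolic chaperones and hypoxia genes (green) and acinar and macrophage markers (yellow), 1 point per gene with a ratio and the number of genes in brackets. Black bars are medians, dashed lines 2-fold, and open points ratios that are bounds because the gene passed the floor on 1 array only. The members sit between -0.46 and 0.44, whereas the hypoxia and acinar medians are -0.71 and -1.0.

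The islet identity of both preparations was checked on other markers. The 9 measured beta cell markers summed to 34226 in control and 31603 in knockout-labelled islets, with 3 of them above 0 and 6 below. The brightest, Iapp, Ins2 and G6pc2, had 15324 and 14244, 9194 and 7786, and 6257 and 5168. The largest differences went both ways, with Pcsk1 at 1505 and 2563 and Ucn3 at 371 and 255. Alpha cell markers summed to 25335 and 20460 and duct cell markers to 3609 and 2783. Delta and PP cell markers summed to 22449 and 17987, a difference that lies in Ppy (12702 and 8095), since Sst had 9661 and 9769.5 and Hhex 86 and 123. Macrophage markers, of which C1qa was the brightest (262 and 404), summed to 802 and 1288, with 9 of the 10 genes that had a ratio above 0, endothelial markers to 801 and 718, and fibroblast and stellate cell markers to 290 and 203. Lymphocyte and plasma cell markers were below the floor on both arrays for 5 of 7 genes. The part of shifts in cell makeup in the members' ratios was not tested.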

How the data were processed

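RNA of 1 control and 1 knockout-labelled islet preparation was measured on Affymetrix arrays. The authors deposited an intensity per probe set on a linear scale, made with MAS5 per the submitters' processing notes. The sources used here give no scaling target, detection call or genome build. The array number limits the precision. Probe sets (45037) took their names from GEO's platform annotation (34945 with 1 gene, 932 with several, 9160 unnamed) and matched by Entrez identifier to RefSeq (34741 matched, GRCm38.p6). The brightest probe set stood for a gene, and signals below the 50th percentile of an array were raised to it. Lists were described by counts and medians. The members and lists were chosen with earlier results of these data known. All members were named; in other lists up to 2 highest and 2 lowest ratios of genes whose signals both passed the floor, and in marker lists up to 3 of the brightest genes. Other genes were named after their values were seen. A planned description of protein features was not run. Alternatives were median, quantile and loess scaling (span 0.4), floors at the 30th and 70th percentile, a pseudocount of 16, the mean over probe sets, probe sets without a shared-probe suffix, and a fold limit of 1.5 in place of the lower limit. The procedure and the motif search were tested on simulated data. Python 3.11.15, pandas 2.3.3, numpy 2.4.6 and statsmodels 0.14.6 were used.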

Additional observations from a re-analysis of the deposited data

How the results depend on the processing

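Under the 8 alternatives to scaling, floor and probe set, no member reached 2-fold, nor did any at a limit of 1.5-fold. The members' median log2 ratio stayed between 0.00091 and 0.055. All 64 recomputed medians and 384 of 391 recomputed gene values moved by less than 0.21, the median SD among probe sets of 1 gene. Part of this was fixed in advance. Floors at the 30th and 70th percentile left the members' median at 0.0076, and median scaling shifted every member's ratio by the same amount. The highest class median was 0.086, below 0.21, so a class median could change sign and still count as unmoved. Past the lower limit 2 members were higher as reported. There was 1 with median scaling and 1 with a pseudocount of 16, Edem2 being lost in both, 4 with the mean over probe sets, 4 without shared-probe probe sets and 0 at a 1.5-fold limit, where the 1 lower member also became 0. The sign changed under at least 1 alternative for 18 members, and among the 9 with a ratio of 0.2 or more for 1, Ppp1r15b. No paired analysis was possible because each group has 1 array. The all-gene median lay within 0.0068 of its reported value under each other scaling. A floor at the 30th percentile gave 695 named genes past 2-fold higher and 638 past 2-fold lower, against 96 and 64 with one at the 70th.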

Other observations

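Probe sets annotated to a member together with another gene were left out above. One names Sec61b with Gm10320 and had signals of 27.9 in control and 42.6 in knockout-labelled islets. Another names Mbtps2 with Yy2 and had 25.8 and 22.8, a log2 ratio of -0.18 in the same direction as the single-gene probe set of Mbtps2. A dim Eif2ak3 probe set passed the floor only in knockout-labelled islets (21.6 and 48.1), while the brightest one was level. The same held for 2 dim Ern1 probe sets (18.3 and 23.6, and 20.2 and 26.8).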
